A study of Mus musculus with 15 samples.

Results

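The effect of XAV939, a small-molecule tankyrase inhibitor, was compared gene by gene with the effect of siRNA against both tankyrases in primary mouse articular chondrocytes. The comparison was between 12 of the 15 libraries, 3 from each of 4 groups. The other 3 libraries came from cells given IWR-1, another tankyrase inhibitor, at 10 μM for 108 h. They entered the comparison only through the filter on low counts, the scaling and the estimate of the spread. Their values for a few genes are given at the end. Chondrocytes came from the femoral condyles and tibial plateaus of ICR mice aged 4 to 5 days and were used at passage 0 in medium with 10% serum. The groups labelled DMSO and XAV939 received the vehicle or 10 μM XAV939 for 108 h, and the groups siCtrl and siTnks/2 were transfected with a control siRNA or with siRNAs against *Tnks* and *Tnks2* together. The time after transfection is not given in the sources used here. The drug and siRNA libraries stand in separate count tables, each with its own control, and were joined by Entrez gene ID. For each gene the XAV939 effect was the log2 fold change of XAV939 over DMSO, the knockdown effect was that of siTnks/2 over siCtrl, and the difference was the first minus the second. An effect or difference was called at an adjusted p-value under 0.05 in edgeR's quasi-likelihood test, and values per library are CPM, a gene's read count divided by the TMM-scaled library size in megareads. Between 26857070 and 36615194 reads per library were counted on genes.

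Tankyrase 1 and tankyrase 2 belong to the PARP enzyme family. Proteins that they modify, among them the axins of the Wnt pathway, are often passed on to ubiquitin ligases and broken down. XAV939 occupies the catalytic site, so the tankyrase proteins remain in the cell but lose activity, whereas siRNA lowers the proteins themselves. Articular chondrocytes live with little oxygen, rely on glycolysis and lay down a matrix of type II collagen and aggrecan.

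The siRNA duplexes are shown because they define the knockdown arm. Capitals in the antisense strands mark the seed, bases 2 to 8 from the 5′ end, through which an siRNA can also pair with other transcripts.
Tnks siRNA sense: gucugucguugaguaccuu
Tnks siRNA antisense: aAGGUACAcaacgacagac
Tnks2 siRNA sense: gugucuacuuguaucacau
Tnks2 siRNA antisense: aUGUGAUAcaaguagacac
The *Tnks* duplex matched exon 14 of the 27 exons of *Tnks*, in the coding sequence (GRCm38, chr8:34855966-34855984, minus strand), and the *Tnks2* duplex matched the last of 27 exons of *Tnks2*, in the 3′ UTR (chr19:36892822-36892840, plus strand). The listed antisense strand of the *Tnks* duplex departs from the exact complement of its sense strand at 1 position (U8A, complement first, counted from the 5′ end). The word AGTACCT, the match of the seed that the exact complement would have, occurred in the 3′ UTR of 8.03% of 13364 tested genes. Their median knockdown effect was −0.022 on the log2 scale, against −0.004 for genes without the word. TATCACA, the match of the *Tnks2* seed, occurred in 8.46% of the 3′ UTRs, with median knockdown effects of −0.007 with and −0.005 without it.

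The targeted transcripts were lower after siRNA, and *Tnks2* was also lower with XAV939. *Tnks* (chromosome 8, 34829179 to 34965690 in mm10) measured 70.0, 58.9 and 71.0 CPM with siCtrl and 19.6, 12.9 and 24.2 CPM with siTnks/2. In the drug table it measured 26.2, 19.9 and 64.6 CPM under DMSO and 13.4, 26.2 and 26.5 CPM under XAV939. The siRNA groups did not overlap, whereas the drug groups did, with the third DMSO library far above the other two. The knockdown mean was 28.4% of its control (p = 0.1 in an exact permutation test, two-sided, which 3 libraries a group cannot go below). The XAV939 mean was 59.8% (p = 0.6 in the same exact test). The knockdown effect was called (−1.81, SE 0.40, adjusted p = 0.00705), the XAV939 effect was −0.74 (SE 0.39, adjusted p = 0.189) and the difference was not called (1.07, adjusted p = 0.208). With the replicate number as a block, the XAV939 effect of *Tnks* (−0.65, adjusted p = 0.0441) and the difference (1.20, adjusted p = 0.0164) were called. *Tnks2* (chromosome 19, 36834129 to 36893477) measured 120, 121 and 116 CPM with siCtrl, 58.5, 45.6 and 61.8 CPM with siTnks/2, 121, 115 and 152 CPM under DMSO and 93.3, 88.3 and 107 CPM under XAV939. Neither pair of groups overlapped. Its knockdown effect was −1.11 (SE 0.12, adjusted p = 0.000107) and its XAV939 effect −0.43 (SE 0.12, adjusted p = 0.0227). Their difference of 0.68 (SE 0.17) was called (adjusted p = 0.0195), though not without DMSO replicate 1.

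Of 14271 genes tested, 1922 (13.5%) differed between the treatments, 770 (5.40%) with a higher and 1152 (8.07%) with a lower value for XAV939. XAV939 changed 2994 genes (21.0%), 1247 upward and 1747 downward. Knockdown changed 2286 (16.0%), 1272 upward and 1014 downward. Both treatments changed 535 genes (3.75%) the same way, 253 upward and 282 downward, and 45 of these also differed in size. Among genes called for the difference, 889 were changed by XAV939 only, 333 upward and 556 downward. Another 569 were changed by knockdown only, 336 upward and 233 downward. A further 191 were changed in opposite directions, of which 61 were higher and 130 lower with XAV939. For 1379 genes called with XAV939 only and 991 called with knockdown only, the difference itself was not called, and these are not counted as particular to a treatment. Neither an effect nor the difference was called for 9489 genes (66.5%). Upper-quartile scaling left the totals close but moved the directions, giving 1759 genes higher and 1436 lower for XAV939 and 1011 higher and 907 lower for the difference. It gave 501 genes higher and 422 lower for XAV939 only, and 92 higher and 113 lower with XAV939 among the opposite genes. With the replicate number as a block the counts were 4018 for the difference, 1718 for XAV939 only, 1172 for knockdown only and 607 for opposite genes. All 191 opposite genes, 719 of the 889 and 457 of the 569 kept their class in that fit.

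Single libraries moved these totals. Without DMSO replicate 1, 1905 genes were called for XAV939, 560 for XAV939 only and 120 as opposite. Without siCtrl replicate 1, 2 or 3 the knockdown calls numbered 1390, 1488 and 1358, the knockdown-only genes 320, 340 and 301 and the opposite genes 105, 120 and 109, and the difference calls were 1241 without replicate 1 and 1259 without replicate 3. Without siTnks/2 replicate 2, 1340 knockdown calls and 319 knockdown-only genes remained, and without siTnks/2 replicate 1 there were 127 opposite genes. The tables themselves stood apart, since the first principal component, with 58.9% of the variance, separated drug from siRNA libraries. Culture batch, vehicle or transfection, and exposure cannot be told apart in that separation, so the difference also holds whatever the starting state of each culture contributed.

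**Figure D1:**
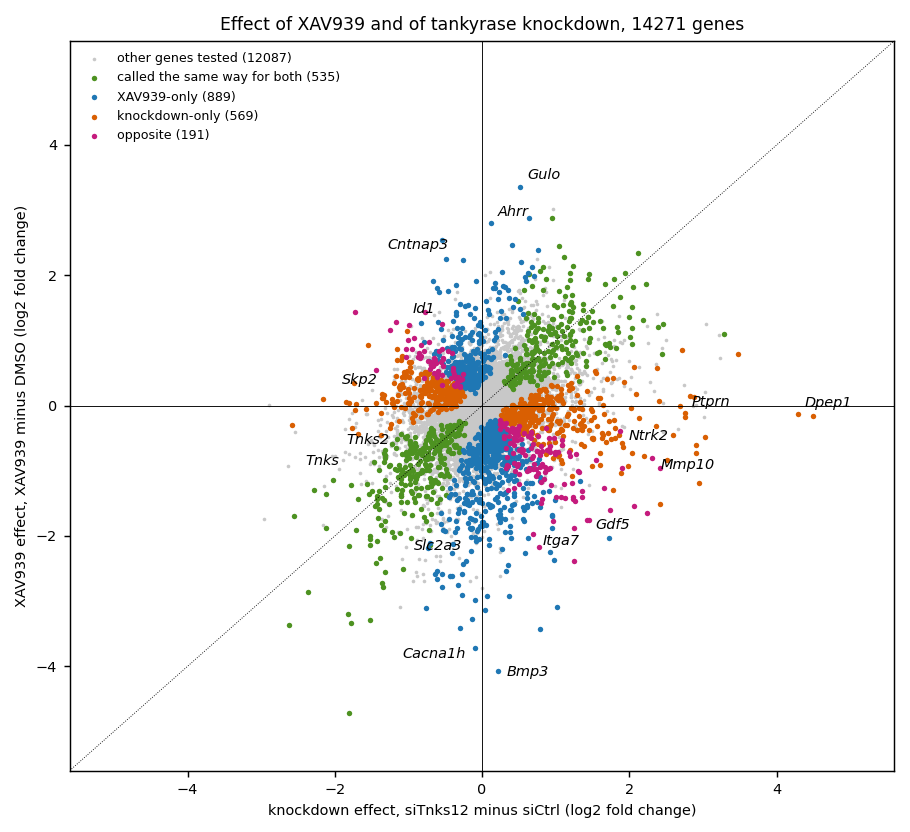
Each point is 1 of 14271 tested genes, with its knockdown effect on the horizontal axis and its XAV939 effect on the vertical axis, both as log2 fold changes over the control of the same table. Colours mark the 889 genes changed by XAV939 only, the 569 changed by knockdown only, the 191 changed in opposite directions and the 535 changed the same way, and the XAV939-only genes spread along the vertical axis.

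**Figure D2:**
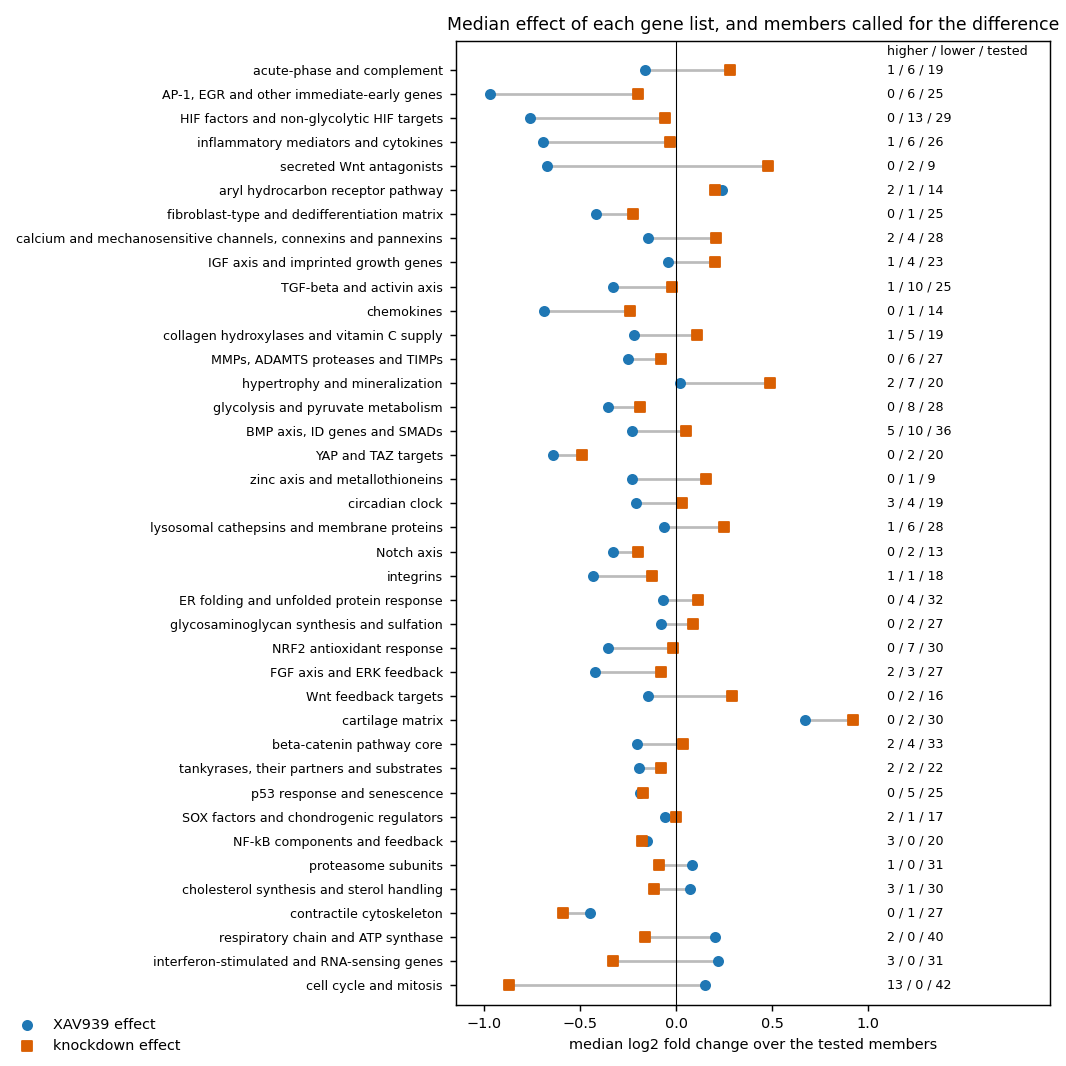
Median log2 effect of XAV939 (circles) and of knockdown (squares) for 39 gene lists, with the number of members called higher, called lower and tested for the difference at the right. HIF factors and targets (13 of 29 lower) and cell cycle genes (13 of 42 higher) have circles and squares far apart, and cartilage matrix genes (2 of 30 lower) have both to the right of 0.

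Hypoxia-inducible factors (HIFs) are the oxygen-sensing activators of angiogenic, glycolytic and matrix-modifying genes. The HIF list joins factor genes to their non-glycolytic targets, and most of its members were lower with XAV939, while few were called with knockdown. Of 29 genes on this list, 21 fell and 0 rose with XAV939, whereas 3 rose and 2 fell with knockdown. The difference was called for 13, all lower with XAV939, against 8.07% of all genes in that direction. The median effects were −0.76 for XAV939 and −0.06 for knockdown. With the replicate block 20 of the 29 were called, and between 10 and 15 were called with single libraries left out, 10 of them without DMSO replicate 1. The summed level of the list was 16400 to 18200 CPM under DMSO and 8520 to 9580 CPM under XAV939. It was 6030 to 6530 CPM with siCtrl and 6000 to 6440 CPM with siTnks/2, so the siRNA controls already lay below the XAV939 libraries, and the part of this starting level in the result was not tested.

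*Egln3*, a HIF prolyl hydroxylase that is itself induced by HIF, measured 131, 137 and 134 CPM under DMSO and 36.7, 39.5 and 42.4 CPM under XAV939. In the siRNA table it measured 7.26, 7.2 and 6.2 CPM with siCtrl and 6.56, 4.56 and 5.01 CPM with siTnks/2. All XAV939 libraries lay below all DMSO libraries, and the siRNA table held the gene at far lower levels in both groups. Its XAV939 effect was −1.76 (SE 0.12, adjusted p = 8.17e-07), its knockdown effect −0.35 (SE 0.13, adjusted p = 0.077) and the difference −1.41 (SE 0.17, adjusted p = 0.000227). The knockdown decrease of *Egln3* was called with the replicate block (−0.36, adjusted p = 0.0236), so the gene then counted as lower with both. *Mxi1*, a MYC antagonist, showed 101, 90.4 and 80.8 CPM under DMSO against 36.7, 30.9 and 33.4 CPM under XAV939. It was level after siRNA, with 16.2, 18.1 and 14.7 CPM against 17.6, 16.0 and 14.5 CPM (difference −1.40, SE 0.16, adjusted p = 0.000107). *Bnip3l*, a mitophagy receptor, fell with XAV939 (−0.94, SE 0.10, adjusted p = 2.35e-05) and had a knockdown effect of −0.06 (adjusted p = 0.757), with a called difference of −0.88 (adjusted p = 0.00143). *Angptl4*, a secreted inhibitor of lipoprotein lipase, moved in opposite directions. It measured 170, 192 and 134 CPM under DMSO, 107, 109 and 87.9 CPM under XAV939, 6.41, 6.04 and 7.43 CPM with siCtrl and 12, 16.1 and 11.6 CPM with siTnks/2 (difference −1.70, SE 0.24, adjusted p = 0.000536).

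*Ero1a*, the oxidase that drives disulfide bond formation in the endoplasmic reticulum (chromosome 14, 45283087 to 45318572), was also opposite. It measured 1140, 1220 and 1270 CPM under DMSO and 468, 452 and 562 CPM under XAV939, a fall of 1.29 on the log2 scale (SE 0.10, adjusted p = 2.46e-06). With siCtrl it measured 240, 245 and 235 CPM and with siTnks/2 321, 310 and 288 CPM, a rise of 0.35 (SE 0.10, adjusted p = 0.0263). No libraries of a pair of groups overlapped, which its choice among the opposite genes required. The difference was −1.65 (SE 0.14, adjusted p = 2.68e-05).

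Glycolysis genes also fell with XAV939, by less than the HIF list. Unlike that list, they also fell in part with knockdown. Of 28 members, 17 fell and 0 rose with XAV939, and 8 fell and 2 rose with knockdown. The difference was called for 8, all lower with XAV939, against 8.07% of all genes in that direction. Medians were −0.36 for XAV939 and −0.19 for knockdown, and 5 members fell with both treatments. The replicate block called 13, and leaving out single libraries gave 6 to 10. The summed level was 24600 to 31000 CPM under DMSO, 19500 to 25300 CPM under XAV939, 13800 to 15200 CPM with siCtrl and 10600 to 11600 CPM with siTnks/2. These ranges overlapped between DMSO and XAV939 and not between siCtrl and siTnks/2. The glucose carrier *Slc2a3* (GLUT3) measured 25.6, 22.5 and 22.4 CPM under DMSO and 5.34, 5.55 and 6.02 CPM under XAV939. With siCtrl it measured 2.56, 3.84 and 2.35 CPM and with siTnks/2 2.55, 3.37 and 2.54 CPM. Its XAV939 effect of −2.05 (SE 0.17, adjusted p = 2.77e-06) stood beside a knockdown effect of −0.04 (SE 0.18, adjusted p = 0.908), and the difference was called (SE 0.25, adjusted p = 0.000233). *Slc2a1* (GLUT1, chromosome 4, 119108745 to 119137330) measured 695, 632 and 620 CPM under DMSO and 303, 382 and 324 CPM under XAV939, against 231, 282 and 207 CPM with siCtrl and 239, 260 and 204 CPM with siTnks/2 (difference −0.92, SE 0.18, adjusted p = 0.00463). The pyruvate dehydrogenase kinases, which slow entry of pyruvate into the citric acid cycle, differed from each other. *Pdk3* fell with XAV939 (−0.90, SE 0.12) with a knockdown effect of −0.08 (difference adjusted p = 0.0067). *Pdk4* fell with XAV939 from 2.25, 1.82 and 2.85 CPM to 0.877, 0.857 and 1.13 CPM and rose with knockdown from 2.12, 2.24 and 2.29 CPM to 4.01, 4.67 and 4.25 CPM (difference −2.16, SE 0.26, adjusted p = 0.000211). *Pfkfb3*, whose product activates phosphofructokinase, had a difference of −0.62 (adjusted p = 0.0143). Its rise of 0.30 with knockdown missed the threshold (adjusted p = 0.0618) and passed it with the replicate block (adjusted p = 0.0316).

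The 250 bases before the start of 2 of these genes are shown because each holds the core of a HIF-binding element, ACGTG, in capitals on either strand (RefSeq, GRCm38.p6).
Ero1a (chr14:45318573-45318822, minus strand): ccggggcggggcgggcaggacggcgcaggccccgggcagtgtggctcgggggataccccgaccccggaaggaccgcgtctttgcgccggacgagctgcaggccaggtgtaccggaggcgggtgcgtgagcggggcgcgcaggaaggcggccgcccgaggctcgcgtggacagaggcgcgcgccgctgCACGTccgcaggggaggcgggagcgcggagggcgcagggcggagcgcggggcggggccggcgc
Slc2a1 (chr4:119108495-119108744, plus strand): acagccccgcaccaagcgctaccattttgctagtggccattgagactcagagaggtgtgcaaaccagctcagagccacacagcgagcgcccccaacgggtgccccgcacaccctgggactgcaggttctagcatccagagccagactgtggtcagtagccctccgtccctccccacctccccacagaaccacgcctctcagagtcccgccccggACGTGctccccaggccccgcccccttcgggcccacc
The word ACGTG, searched on both strands, was present in this window for 21.6% of 11250 tested genes and for 16.6% of all 27025 promoters. Windows of genes lower with XAV939 only held it in 121 of 427 cases (28.3%), and those of genes higher with XAV939 only in 22.6%. The shares were 23.4% for genes higher and 18.1% for genes lower with knockdown only. Of 16 HIF and glycolysis genes with a window and a called difference, 8 held it. The word also lies inside CACGTG, the E-box of MYC and clock factors, which 8.42% of the tested genes' windows held.

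**Figure D3:**
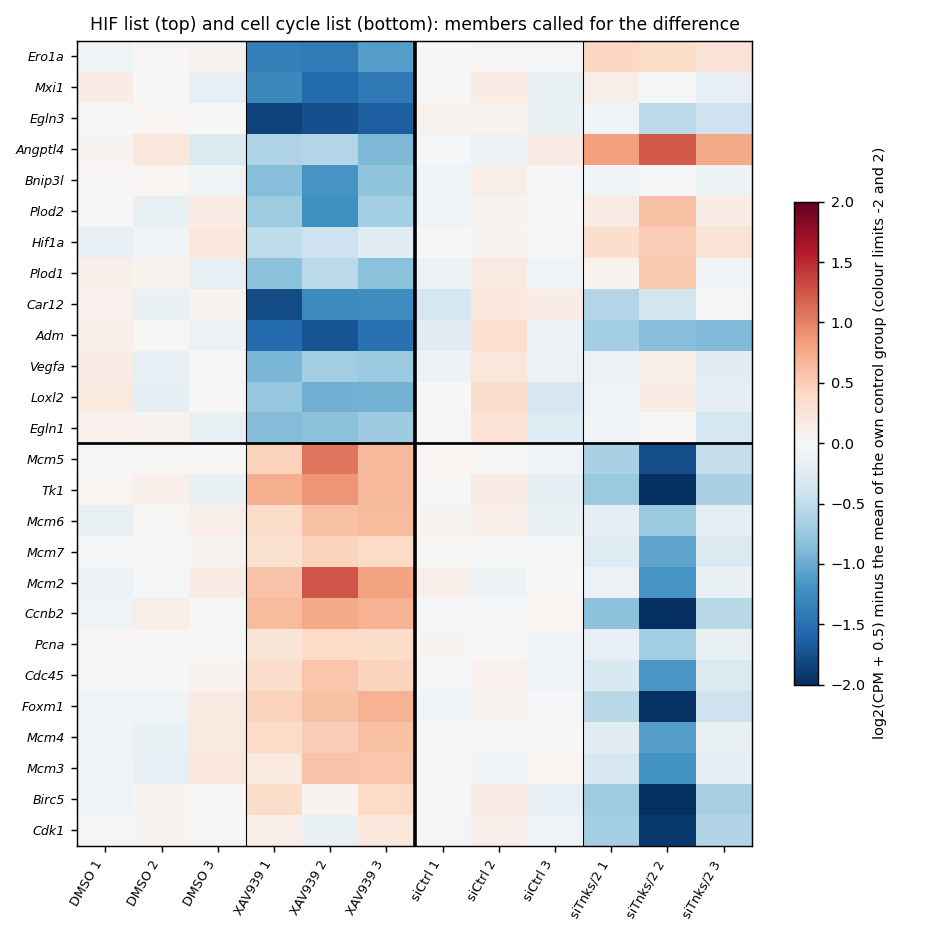
Heat map of log2(CPM + 0.5) minus the mean of the own control group for the 13 HIF genes and 13 cell cycle genes called for the difference, with 1 column per library and colour limits of −2 and 2. HIF genes are below their control in the 3 XAV939 libraries, and cell cycle genes are below it in the siTnks/2 libraries, most in replicate 2.

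Genes of the NRF2 response, which protects cells from oxidants, were partly lower with XAV939. Of 30 tested, 12 fell and 1 rose with XAV939, and 2 rose and 2 fell with knockdown. Called differences numbered 7, all lower with XAV939, against 8.07% of all genes in that direction. The count was 4 without XAV939 replicate 1, siCtrl replicate 1 or siCtrl replicate 3. The summed level ran the other way, from 17800 to 24200 CPM under DMSO and from 20400 to 28700 CPM under XAV939, and was 7180 to 7470 CPM with siCtrl and 8210 to 8680 CPM with siTnks/2. *Hmox1*, the haem-degrading oxygenase, measured 1020, 901 and 943 CPM under DMSO, 436, 376 and 445 CPM under XAV939, 309, 316 and 321 CPM with siCtrl and 392, 326 and 352 CPM with siTnks/2. XAV939 lowered it (−1.19, SE 0.10, adjusted p = 4.11e-06), the knockdown effect was 0.18 (SE 0.10, adjusted p = 0.256) and the difference was −1.36 (adjusted p = 8.19e-05). *Srxn1* (sulfiredoxin, which repairs peroxiredoxins) fell by 0.99 with XAV939 on the log2 scale (SE 0.10) and had a knockdown effect of 0.25 (adjusted p = 0.103, and 0.0254 with the replicate block), with a difference of −1.24 (adjusted p = 0.000125). *Me1*, a cytosolic source of NADPH, was opposite, with 495, 479 and 440 CPM under DMSO, 396, 339 and 364 CPM under XAV939, 303, 328 and 300 CPM with siCtrl and 412, 448 and 403 CPM with siTnks/2 (difference −0.80, SE 0.13, adjusted p = 0.0016). The thioredoxin reductase *Txnrd1* (difference −0.67, adjusted p = 0.0177) and the glutathione reductase *Gsr* (−0.57, adjusted p = 0.0211) fell with XAV939 only. The call of *Gsr* was lost when any of 4 libraries was left out singly.

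The gene raised by XAV939 only with the smallest p of the difference belonged to the aryl hydrocarbon receptor pathway, which senses planar aromatic compounds. *Ahrr*, the repressor that this receptor induces as feedback (chromosome 13, 74211118 to 74292331), measured 1.52, 1.3 and 2.28 CPM under DMSO and 10.5, 12.8 and 13.3 CPM under XAV939. With siCtrl it measured 5.4, 6.83 and 5.92 CPM and with siTnks/2 5.83, 6.33 and 7.51 CPM, so the siRNA groups overlapped between the drug groups. The XAV939 effect was 2.80 (SE 0.22, adjusted p = 2.6e-06), the knockdown effect 0.12 (SE 0.21, adjusted p = 0.757) and the difference 2.68 (SE 0.30, adjusted p = 0.000123). Its promoter window is shown because it holds 3 copies of GCGTG, the core bound by the receptor, in capitals (RefSeq, GRCm38.p6).
Ahrr (chr13:74292332-74292581, minus strand): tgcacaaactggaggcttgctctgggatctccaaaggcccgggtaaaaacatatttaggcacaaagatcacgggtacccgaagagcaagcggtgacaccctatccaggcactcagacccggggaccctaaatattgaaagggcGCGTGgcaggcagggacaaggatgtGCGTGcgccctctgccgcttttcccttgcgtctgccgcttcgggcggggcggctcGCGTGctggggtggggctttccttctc
At least 1 GCGTG on either strand was present for 44.9% of tested genes and for 44.8% of genes higher with XAV939 only. It was present for 50.1% of genes lower with XAV939 only, which thus exceeded the share of tested genes for this word as for ACGTG. The other listed members of the pathway did not move as a group. Of 14 tested, 5 rose and 3 fell with XAV939, 3 rose with knockdown, and 3 differed (6 with the replicate block), against 13.5% of all genes. *Aldh3a1*, an aldehyde dehydrogenase, was higher with XAV939 only (0.78, SE 0.25, adjusted p = 0.0413), and its difference of 1.36 (adjusted p = 0.0318) was lost when any of 7 libraries was left out singly. *Tiparp*, another target of the receptor and itself an ADP-ribosyltransferase, went the other way. It fell with XAV939 (−0.52, SE 0.12, adjusted p = 0.00664), with a difference of −0.84 (adjusted p = 0.0059). Its knockdown effect of 0.31 had an adjusted p of 0.0927, and of 0.046 with the block.

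Immediate-early genes, the transcription factors and feedback genes that cells switch on within minutes of growth or stress signals, were lower with XAV939. Of 25, 18 fell and 0 rose with XAV939, and 5 fell and 1 rose with knockdown. Called differences numbered 6, all lower with XAV939, against 8.07% of all genes in that direction (13 with the replicate block and 4 to 9 with single libraries left out). The median effects were −0.97 and −0.20. The summed level was 2310 to 2580 CPM under DMSO, 1160 to 1570 CPM under XAV939, 889 to 1090 CPM with siCtrl and 772 to 809 CPM with siTnks/2, so this list too began lower in the siRNA cultures. *Jun*, an AP-1 subunit, measured 207, 164 and 196 CPM under DMSO, 60.5, 64.5 and 78.7 CPM under XAV939, 51.5, 64.4 and 56.4 CPM with siCtrl and 55.1, 48.8 and 53 CPM with siTnks/2 (difference −1.34, SE 0.19, adjusted p = 0.000689). Only the drug groups were apart. *Btg2*, an antiproliferative gene (difference −1.16, adjusted p = 0.000917), *Maff*, a small MAF factor (−1.43, adjusted p = 0.0083), and *Zfp36*, which destabilizes cytokine mRNAs (−0.82, adjusted p = 0.0188), likewise fell with XAV939 only, *Zfp36* not without siCtrl replicate 1. *Atf3*, a stress-induced factor, measured 49.1, 44.3 and 65.8 CPM under DMSO, 22.8, 30.7 and 27.9 CPM under XAV939, 18.9, 23.2 and 22.5 CPM with siCtrl and 34.8, 39.3 and 33.2 CPM with siTnks/2. It fell with XAV939 (−0.97, SE 0.15) and rose with knockdown (0.73, SE 0.15), a difference of −1.70 (adjusted p = 0.000246). *Hbegf*, an EGF receptor ligand on the list of FGF and ERK feedback genes, measured 46.8, 34.1 and 43.8 CPM under DMSO and 10.4, 9.72 and 14.6 CPM under XAV939. It stayed between 35.4 and 50.5 CPM in all 6 siRNA libraries (difference −1.89, SE 0.25, adjusted p = 0.000324). On that list of 27 genes 5 differed, 2 higher and 3 lower with XAV939, against 13.5% of all genes. *Fgfr3*, the receptor that restrains growth plate chondrocytes, rose with both, from 28.4, 41.8 and 36.1 CPM to 133, 213 and 122 CPM under XAV939 and from 578, 635 and 495 CPM to 1070, 1030 and 924 CPM with knockdown (difference 1.31, SE 0.26, adjusted p = 0.00566). *Phlda1* fell with XAV939 (−0.57, SE 0.14, adjusted p = 0.0101), with a difference of −0.90 (adjusted p = 0.0102) and a knockdown effect of 0.33 (adjusted p = 0.142, and 0.038 with the block).

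Cell cycle genes gave calls mostly in the knockdown arm. Of 42, 16 fell and 0 rose with knockdown, whereas 4 rose and 1 fell with XAV939. The difference was called for 13, all higher with XAV939, against 5.40% of all genes in that direction, and the median effects were 0.15 for XAV939 and −0.87 for knockdown. The summed level was 1640 to 2020 CPM under DMSO, 1840 to 2220 CPM under XAV939, 1650 to 1720 CPM with siCtrl and 465 to 1290 CPM with siTnks/2, so the control cultures were close and the knockdown libraries were all below them. Replicate 2 of siTnks/2 was the lowest of the 3. Without it the median knockdown effect was −0.49 and 19 members differed. The count was 20 without siTnks/2 replicate 3 and 8 without DMSO replicate 1, siCtrl replicate 1 or siCtrl replicate 2. With the replicate block 41 members fell with knockdown and 34 differed. In bulk RNA, fewer cycling cells and less of these transcripts per cell cannot be told apart.

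The named members were subunits of the replicative helicase and a nucleotide enzyme. *Mcm5* measured 33.6, 35.1 and 35.4 CPM under DMSO and 47.8, 73.1 and 54.6 CPM under XAV939. With siCtrl it measured 41.5, 41.0 and 38.3 CPM and with siTnks/2 25.5, 11.4 and 28.9 CPM. It rose with XAV939 (0.75, SE 0.24, adjusted p = 0.0352) and fell with knockdown (−0.87, SE 0.24, adjusted p = 0.0235), a difference of 1.62 (adjusted p = 0.00654). *Tk1* (thymidine kinase) fell with knockdown (−1.08, SE 0.28, adjusted p = 0.0169), from 28.3, 31.6 and 24.9 CPM to 16.6, 5.54 and 17.7 CPM, and had a difference of 1.85 (adjusted p = 0.00743). *Mcm6* (difference 0.89, adjusted p = 0.00861) and *Mcm2* (1.31, adjusted p = 0.0146) rose with XAV939 only, and *Mcm7* (0.88, adjusted p = 0.014) fell with knockdown only. With the replicate block *Tk1*, *Mcm6* and *Mcm7* counted as opposite, with adjusted p-values of 0.0301 and 0.0283 for the added XAV939 rises of *Tk1* and *Mcm7* and 0.0398 for the added knockdown fall of *Mcm6*. *Tk1* and *Mcm7* overlap another gene, so some of their reads may be assigned uncertainly.

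Bone morphogenetic protein (BMP) signalling, which acts through SMADs and the ID factors to direct cartilage differentiation, gave differences in both directions. Of 36 genes on the list, 15 differed, 5 higher and 10 lower with XAV939 (21 with the replicate block), against 13.5% of all genes. XAV939 raised 4 and lowered 10, and knockdown raised 9 and lowered 8. *Id1*, an inhibitor of differentiation and direct BMP target (chromosome 2, 152736251 to 152737410), measured 29.8, 32.7 and 22.5 CPM under DMSO and 65.2, 73.5 and 64.7 CPM under XAV939, and 77.5, 81.1 and 70.0 CPM with siCtrl and 54.2, 54.1 and 48.2 CPM with siTnks/2. Neither pair overlapped, which its choice among the opposite genes required, and the directions were opposite. It rose by 1.26 (SE 0.13, adjusted p = 1.96e-05) and fell by 0.55 with knockdown (SE 0.13, adjusted p = 0.0114), both as log2 fold changes, a difference of 1.80 (adjusted p = 8.19e-05). *Id3* repeated this with 91.8, 99.9 and 79.4 CPM against 157, 138 and 146 CPM in the drug table and 180, 169 and 172 CPM against 121, 97.1 and 117 CPM in the siRNA table (difference 1.34, SE 0.17, adjusted p = 0.00026). *Smad9*, a BMP receptor SMAD, rose with XAV939 (0.96, SE 0.13) with a knockdown effect of −0.29 (adjusted p = 0.135, and 0.0357 with the block) and a difference of 1.25 (adjusted p = 0.000753).

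Other named members were lower with XAV939. *Gdf5*, the joint-forming BMP family ligand (chromosome 2, 155941023 to 155945367), measured 74.8, 74.1 and 59.6 CPM under DMSO and 18.3, 22.1 and 21.2 CPM under XAV939. In the siRNA table it measured 15.1, 21.3 and 16.9 CPM with siCtrl and 40.0, 66.1 and 36.9 CPM with siTnks/2. The fall of 1.76 on the log2 scale (SE 0.19, adjusted p = 2.87e-05) and the rise of 1.42 (SE 0.19, adjusted p = 0.000353) gave a difference of −3.18 (SE 0.27, adjusted p = 2.68e-05). *Bmp3*, a ligand that dampens BMP signals (chromosome 5, 98854415 to 98884053), measured 2.8, 3.18 and 2.72 CPM under DMSO and 0.0797, 0.149 and 0.122 CPM under XAV939. It measured 1.96, 1.86 and 1.89 CPM with siCtrl and 3.14, 1.7 and 1.81 CPM with siTnks/2 (difference −4.28, SE 0.37, adjusted p = 2.68e-05). Only the drug groups were apart, and the XAV939 level rests on a handful of reads. *Bmper*, which binds BMPs outside the cell, fell with XAV939 (−0.81, SE 0.14) and rose with knockdown (0.68, SE 0.14), with a difference of −1.48 (adjusted p = 0.000356). *Nkx3-2*, a homeobox repressor that works with SOX9 and belongs to the list of chondrogenic factors, rose with XAV939 from 4.23, 4.07 and 3.73 CPM to 6.16, 7.9 and 7.27 CPM. It fell with knockdown from 8.11, 8.95 and 7.77 CPM to 6.63, 5.68 and 6.36 CPM (difference 1.22, SE 0.17, adjusted p = 0.000644).

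**Figure D4:**
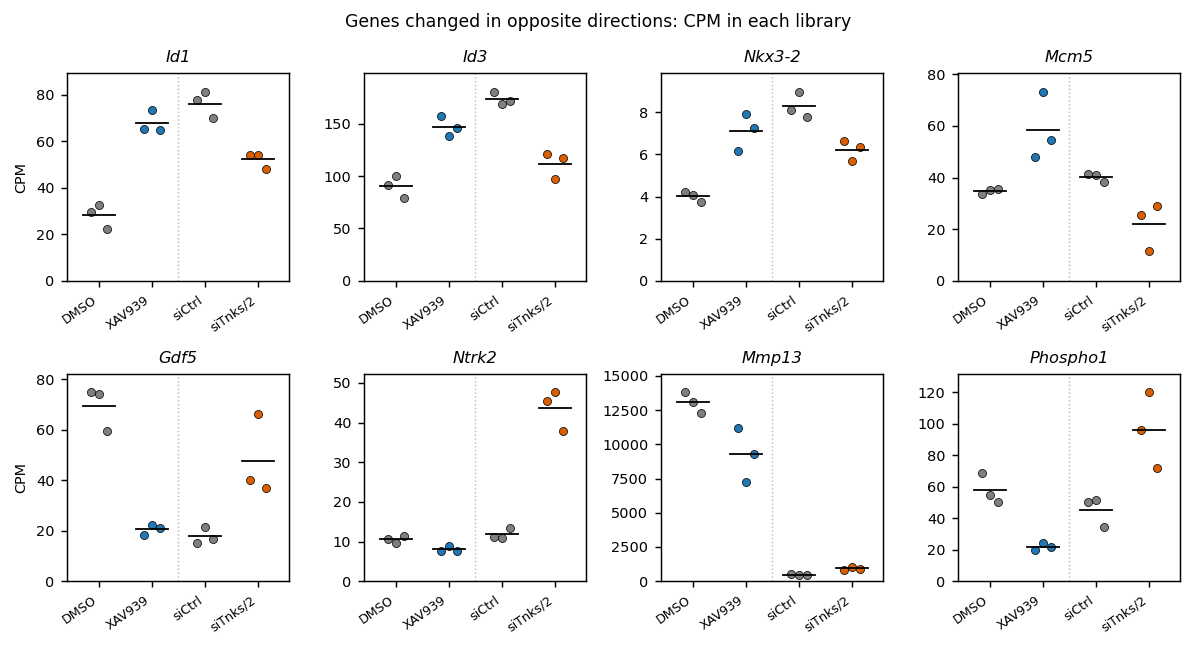
CPM of 8 genes changed in opposite directions (*Id1*, *Id3*, *Nkx3-2*, *Mcm5*, *Gdf5*, *Ntrk2*, *Mmp13* and *Phospho1*), with 1 point per library in the DMSO, XAV939, siCtrl and siTnks/2 groups and a bar at each group mean. The *Gdf5* points fall from about 60 to 75 CPM to near 20 CPM under XAV939 and rise from near 20 to 37 to 66 CPM with knockdown.

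Of 25 genes of the TGF-β and activin axis, 11 differed, 10 of them lower with XAV939, against 13.5% of all genes. XAV939 lowered 9 and raised 1, and knockdown raised 2 and lowered 2. The count was 7 without XAV939 replicate 1, any 1 siCtrl library or siTnks/2 replicate 1. *Tgfbr2*, the type II receptor, measured 197, 193 and 179 CPM under DMSO and 115, 123 and 114 CPM under XAV939, and 321, 324 and 312 CPM with siCtrl and 290, 274 and 274 CPM with siTnks/2. Its XAV939 effect was −0.69 (SE 0.07, adjusted p = 2.14e-05), its knockdown effect −0.19 (SE 0.07, adjusted p = 0.0862) and the difference −0.50 (adjusted p = 0.00665). *Smad3*, the receptor-activated SMAD of this pathway, fell with XAV939 (−0.66, SE 0.10) and had a knockdown effect of −0.02 (difference −0.64, adjusted p = 0.00734). The ligand gene *Tgfb1* had an XAV939 effect of 0.09 and rose with knockdown from 35.6, 38.4 and 38.6 CPM to 56.4, 74.7 and 55.5 CPM (difference −0.64, SE 0.14, adjusted p = 0.0106). *Ltbp4*, which stores latent TGF-β in the matrix, was the exception and rose with XAV939 only (difference 0.93, adjusted p = 0.0124).

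Genes of hypertrophy and mineralization, the terminal program of growth plate chondrocytes, held 9 differences among 20, 2 higher and 7 lower with XAV939. Of all genes 13.5% differed. Knockdown raised 10 and lowered 0, and XAV939 raised 6 and lowered 6, with 6 raised by both. Members changed in opposite directions numbered 3, but 1 with upper-quartile scaling and 1 when only the 12 compared libraries were fitted. *Phospho1*, a phosphatase that starts mineral formation, measured 68.9, 54.7 and 50.3 CPM under DMSO, 20.1, 24.2 and 21.7 CPM under XAV939, 50.3, 51.6 and 34.6 CPM with siCtrl and 95.8, 120 and 72.2 CPM with siTnks/2. The groups of each pair were apart, in opposite directions (difference −2.48, SE 0.26, adjusted p = 8.65e-05), and the gene overlaps *Abi3*. *Mmp13*, the main collagenase of hypertrophic and osteoarthritic cartilage, measured 13800, 13100 and 12300 CPM under DMSO, 11200, 7280 and 9310 CPM under XAV939, 503, 424 and 483 CPM with siCtrl and 835, 1030 and 919 CPM with siTnks/2. It fell by 0.49 on the log2 scale (SE 0.15, adjusted p = 0.0323) and rose by 0.98 (SE 0.15, adjusted p = 0.000866), a difference of −1.48 (adjusted p = 0.000724), from starting levels more than an order of magnitude apart. *Mef2c*, which drives hypertrophy, rose with knockdown only (0.70, SE 0.09, adjusted p = 0.000352, difference adjusted p = 0.00528). *Sp7* (osterix) and *Panx3*, a channel of hypertrophic cells, rose with both treatments. On the log2 scale both rose more with XAV939, from DMSO levels below those with siCtrl. *Sp7* went from 1.68, 2.11 and 1.9 CPM to 6.72, 4.88 and 6.02 CPM under XAV939 and from 16.3, 12.5 and 13.9 CPM to 22.2, 16.4 and 21.4 CPM with knockdown, and its difference was 1.12 (adjusted p = 0.00483). The difference for *Panx3* was 1.16 (adjusted p = 0.00532).

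Matrix-degrading enzymes gave 6 differences among 27 proteases and inhibitors, all lower with XAV939 (13, of which 2 were higher, with the block). Of all genes 8.07% were called in that direction. XAV939 lowered 5 and raised 0, and knockdown raised 8 and lowered 2. Of these proteases 2 were opposite, but 1 with upper-quartile scaling and 1 when only the 12 compared libraries were fitted. *Mmp10*, a stromelysin, fell with XAV939 from 4.81, 4.74 and 4.97 CPM to 2.44, 2.01 and 3.71 CPM and rose with knockdown from 1.36, 1.9 and 1.21 CPM to 6.21, 9.7 and 6.82 CPM (difference −3.12, SE 0.35, adjusted p = 0.000123). *Adamts4*, an aggrecanase, fell with XAV939 (−0.82, SE 0.26, adjusted p = 0.0338), with a knockdown effect of 0.65 (adjusted p = 0.107, and 0.0014 with the block) and a difference of −1.47 (adjusted p = 0.0173). *Mmp3* measured 9600, 9620 and 10300 CPM under DMSO and 6000, 5680 and 8360 CPM under XAV939, but only 14.6, 35.2 and 17.3 CPM with siCtrl and 41.6, 132 and 43.4 CPM with siTnks/2. Its knockdown rise of 1.69 (SE 0.41, adjusted p = 0.012) and difference of −2.25 (adjusted p = 0.0179) were called, and its XAV939 effect of −0.56 (adjusted p = 0.327) was called with the block only (adjusted p = 0.0031). *Mmp9*, a gelatinase, rose with knockdown from under 0.5 CPM to 1.85, 5.18 and 1.05 CPM (difference −1.87, adjusted p = 0.0416, lost when any of 11 libraries was left out singly). Its XAV939 effect of 0.85 had an adjusted p of 0.0839, and of 0.000311 with the block.

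Several inflammatory mediators had DMSO levels far above those of the siRNA cultures. Of 26 tested, 11 fell and 1 rose with XAV939, and 4 fell and 1 rose with knockdown. Called differences numbered 7, 6 of them lower with XAV939 (11 with the block), against 13.5% of all genes. The count was 4 without DMSO replicate 3, XAV939 replicate 1 or siCtrl replicate 1 and 3 without siCtrl replicate 3 or siTnks/2 replicate 1. *Nos2*, the inducible nitric oxide synthase, measured 1610, 1200 and 1440 CPM under DMSO and 417, 404 and 511 CPM under XAV939 (−1.67, SE 0.17, adjusted p = 1.54e-05). In the siRNA table it lay between 0 and 0.14 CPM in all 6 libraries, so a knockdown effect was not measurable at this depth, and its difference was lost when any of 6 libraries was left out singly. *Il11*, an IL-6 family cytokine, went from 26, 16.8 and 33.3 CPM to 3.56, 2.09 and 8.03 CPM under XAV939 and measured 2.51 to 4.61 CPM in the siRNA libraries (difference −2.81, SE 0.54, adjusted p = 0.00417). *Tnfsf11* (RANKL), which drives osteoclast formation, went from 48.1, 44.9 and 54.6 CPM to 16.0, 14.0 and 28.4 CPM under XAV939 and measured 0.403 to 1.16 CPM in the siRNA libraries. Its difference was −2.16 (adjusted p = 0.00462), and its knockdown effect of 0.83 (adjusted p = 0.122) was called with the block (adjusted p = 0.0455). *Il33*, an alarmin, stayed under 0.7 CPM in all 12 libraries (difference −1.94, adjusted p = 0.0138). *Stat3*, through which IL-6 family cytokines signal, differed by −0.56 (adjusted p = 0.0295) with neither effect called. With the block it counted as opposite (XAV939 −0.25, adjusted p = 0.0398, knockdown 0.31, adjusted p = 0.017), and in the fit without the block the call of the difference was lost when any of 7 libraries was left out singly.

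Of 19 acute-phase and complement genes, 7 rose and 1 fell with knockdown, whereas XAV939 raised 2 and lowered 5. The difference was called for 7, 6 of them lower with XAV939, against 13.5% of all genes. The count was 4 without DMSO replicate 1, XAV939 replicate 1, siCtrl replicate 3, siTnks/2 replicate 1 or siTnks/2 replicate 2. *Cd55*, a complement decay accelerator, fell with XAV939 from 6.64, 5.63 and 8.64 CPM to 4.54, 2.98 and 5.26 CPM and rose with knockdown from 17.2, 15.1 and 15.6 CPM to 31.6, 26.7 and 26.2 CPM (difference −1.51, SE 0.29, adjusted p = 0.00426). *Hp* (haptoglobin) measured 765, 900 and 574 CPM under DMSO but 1.17, 1.45 and 1.02 CPM with siCtrl, and rose with knockdown by 1.70 (SE 0.25, adjusted p = 0.000507, difference adjusted p = 0.0123). Its XAV939 effect of 0.40 (adjusted p = 0.124) was called with the block (adjusted p = 0.0223). *Saa3* (serum amyloid A) measured 20400, 23800 and 12600 CPM under DMSO and 3.06, 2.46 and 2.01 CPM with siCtrl. It rose with knockdown by 1.19 (SE 0.36, adjusted p = 0.038), with an XAV939 effect of −0.69 (adjusted p = 0.123, and 0.0216 with the block), and its difference of −1.87 (adjusted p = 0.0187) was lost without siCtrl replicate 3. *Saa3* has close relatives that may share reads. *Serping1*, the C1 inhibitor, fell with XAV939 only (difference −1.05, adjusted p = 0.0353, lost when any of 9 libraries was left out singly).

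Circadian clock genes differed for 7 of 19, 3 higher and 4 lower with XAV939 (11 with the block), against 13.5% of all genes. XAV939 raised 2 and lowered 6, and knockdown raised 1 and lowered 1. The repressors *Bhlhe41* and *Bhlhe40*, which respond to both the clock and hypoxia, fell with XAV939. *Bhlhe41* measured 38.0, 32.6 and 36.7 CPM under DMSO, 10.7, 13.2 and 16.4 CPM under XAV939, 21.4, 19.9 and 19.5 CPM with siCtrl and 27.7, 28.9 and 20.2 CPM with siTnks/2 (difference −1.75, SE 0.22, adjusted p = 0.000233). *Bhlhe40* had a difference of −1.31 (adjusted p = 0.0011), and its knockdown effect of 0.32 (adjusted p = 0.147) was called with the block (adjusted p = 0.0218). *Arntl* (BMAL1), the positive arm of the clock, fell with XAV939 (−0.89, SE 0.14) and rose with knockdown (0.49, SE 0.14, adjusted p = 0.0246), a difference of −1.39 (adjusted p = 0.000536). *Per3*, of the negative arm, rose with XAV939 from 11.0, 10.8 and 13.1 CPM to 24.6, 26 and 23.9 CPM and was level after siRNA, at 20.2 to 25.5 CPM (difference 1.12, adjusted p = 0.000764). *Rora* fell with XAV939 only (difference −1.26, adjusted p = 0.00183).

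Of 19 collagen-modifying enzymes, 7 fell and 1 rose with XAV939, and 2 rose with knockdown. The difference was called for 6, 5 of them lower (11 with the block), against 13.5% of all genes. *Plod2*, a lysyl hydroxylase of collagen telopeptides, measured 1200, 1090 and 1350 CPM under DMSO and 737, 517 and 753 CPM under XAV939, against 824, 905 and 864 CPM with siCtrl and 969, 1290 and 958 CPM with siTnks/2 (difference −1.17, SE 0.21, adjusted p = 0.00289). *Plod1* (−0.92, adjusted p = 0.0101), which is also on the HIF list with *Plod2*, and *P3h3* (−0.49, adjusted p = 0.00893) fell with XAV939 only. *Colgalt2*, which adds galactose to hydroxylysine, rose with knockdown only (0.99, SE 0.21, adjusted p = 0.00499) and fell with XAV939 when the block was used (−0.58, adjusted p = 0.00152). *Gulo*, the last enzyme of vitamin C synthesis, measured 0.0305, 0.0866 and 0 CPM under DMSO and 0.744, 1.42 and 0.882 CPM under XAV939. In the siRNA table it lay between 1.14 and 2.79 CPM (difference 2.84, SE 0.49, adjusted p = 0.00211). With so few reads under DMSO, that fitted value depends on the prior count.

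Wnt pathway genes are closest to the axin arm of tankyrase. Of 33 core components, 6 differed (13.5% of all genes did), 2 higher and 4 lower with XAV939 (14 with the block). The receptor *Fzd1* measured 134, 114 and 119 CPM under DMSO, 50.9, 53.4 and 58.8 CPM under XAV939, 47.8, 54.1 and 50.5 CPM with siCtrl and 44.0, 40.9 and 45.8 CPM with siTnks/2 (difference −0.95, SE 0.13, adjusted p = 0.000421). *Fzd7* also fell with XAV939 only (difference −0.70, adjusted p = 0.0171). *Fzd9* went the other way, from 6.67, 14.9 and 7.12 CPM to 38.6, 53.1 and 34.5 CPM under XAV939 and from 88.6, 86.8 and 81.7 CPM to 143, 149 and 120 CPM with knockdown. Its XAV939 effect was 2.12 (SE 0.25) and the difference 1.44 (adjusted p = 0.0132), and the knockdown effect of 0.68 (adjusted p = 0.0634) was called with the block (adjusted p = 0.00352). *Csnk1a1*, the priming kinase of β-catenin breakdown, fell with XAV939 (−0.39, SE 0.09), with a difference of −0.63 (adjusted p = 0.0058) and a knockdown effect of 0.24 (adjusted p = 0.0886, and 0.0378 with the block). *Wnt5b*, a noncanonical ligand, rose with knockdown only (1.06, SE 0.19, adjusted p = 0.00191, difference adjusted p = 0.00658). Among 16 feedback targets 2 differed, a share near the 13.5% of all genes (9 with the block, 0 without siTnks/2 replicate 1, 4 without siTnks/2 replicate 2, 3 without XAV939 replicate 3 and 1 when any of 9 others was left out singly). *Axin2*, the usual readout of β-catenin, measured 3.32, 2.57 and 3.13 CPM under DMSO, 1.2, 0.82 and 1.22 CPM under XAV939, 3.47, 2.5 and 3.44 CPM with siCtrl and 3.11, 1.7 and 3.2 CPM with siTnks/2. XAV939 lowered it (−1.42, SE 0.26, adjusted p = 0.00172) and the knockdown effect was −0.23 (SE 0.25, adjusted p = 0.596). The difference of −1.19 (adjusted p = 0.0429) was lost when any of 10 libraries was left out singly and with upper-quartile scaling. Of 9 secreted antagonists 2 differed (1 without siTnks/2 replicate 1), against 13.5% of all genes. *Sfrp4* fell with XAV939 (−0.74, SE 0.22, adjusted p = 0.0269) and rose with knockdown (0.99, SE 0.19, adjusted p = 0.00332), a difference of −1.73 (adjusted p = 0.00183). *Wif1* measured 17.9, 21.5 and 24.5 CPM under DMSO, 7.2, 7.6 and 10.3 CPM under XAV939, 35.1, 19 and 27.2 CPM with siCtrl and 54.8, 18.4 and 50.5 CPM with siTnks/2. Its difference of −1.95 (adjusted p = 0.0194) was lost without siTnks/2 replicate 1, and its knockdown effect of 0.60 (adjusted p = 0.259) was called with the block (adjusted p = 0.024).

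Of 22 tankyrases, partners and substrates, 4 differed, 2 in each direction (8 with the block), a share near the 13.5% of all genes, and 1 of the 4 was the siRNA target *Tnks2*. The count was 1 without DMSO replicate 1 and 2 without XAV939 replicate 1, siCtrl replicate 2 or siTnks/2 replicate 1. Besides *Tnks2* and *Tiparp* they were *Sh3bp2* and *Parp2*. *Sh3bp2*, an adaptor protein that tankyrase marks for breakdown, measured 8.65, 5.93 and 8.92 CPM with siCtrl and 12.9, 15.7 and 11.8 CPM with siTnks/2, and lay between 7.25 and 9.43 CPM in the drug table. It rose with knockdown only (0.77, SE 0.16, adjusted p = 0.00577), and its difference of −0.81 (adjusted p = 0.0331) was lost when any of 6 libraries was left out singly. *Parp2*, a DNA repair polymerase of the same enzyme family, rose with XAV939 only (0.39, SE 0.09, adjusted p = 0.00876). Its difference of 0.44 (adjusted p = 0.0396) was lost when any of 12 libraries was left out singly.

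The genes most particular to 1 treatment were not confined to these pathways. Among those lower with XAV939 only, *Cacna1h*, a T-type calcium channel (chromosome 17, 25374285 to 25436334), had the smallest p of the whole difference test. It measured 43.8, 29.3 and 32.8 CPM under DMSO and 2.82, 2.91 and 2.19 CPM under XAV939, against 2.97, 2.95 and 3.31 CPM with siCtrl and 2.48, 2.82 and 3.33 CPM with siTnks/2. XAV939 brought it to the level of the siRNA cultures (−3.71, SE 0.17, adjusted p = 2.72e-08), and the difference was −3.62 (SE 0.24, adjusted p = 4.23e-06). *Rerg*, a RAS-like growth inhibitor, went from 12.4, 9.85 and 8.86 CPM to 0.956, 1.16 and 1.67 CPM under XAV939 and stayed at 5.31 to 7.13 CPM in the siRNA table (difference −2.88, SE 0.29, adjusted p = 7.59e-05). *Mfsd9* (difference −1.85, adjusted p = 3.51e-05) and *Pgbd1* (−1.81, adjusted p = 8.19e-05) completed the 5 with *Bmp3*. Higher with XAV939 only, after *Ahrr*, were *Cntnap3*, a neurexin-like adhesion gene (0.122 to 0.202 CPM under DMSO, 0.77 to 1.45 CPM under XAV939, difference 2.49, adjusted p = 0.000332), and the receptor *Fgfr4* (2.34, adjusted p = 0.000476). The adaptor *Fyb* (1.47, adjusted p = 0.000499) and *Smad9* followed. *Fgfr4* measured 1.16, 1.16 and 0.949 CPM under DMSO and 3.32, 5.14 and 3.04 CPM under XAV939, and its knockdown effect of −0.59 (adjusted p = 0.0797) was called with the block (adjusted p = 0.0167).

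Higher with knockdown only was first *Ptprn*, a protein of dense-core secretory vesicles (chromosome 1, 75247035 to 75264497). It measured 4.07, 4.7 and 5.08 CPM with siCtrl and 30.0, 34.4 and 30.1 CPM with siTnks/2, against 7.83, 5.83 and 5.73 CPM under DMSO and 6.56, 5.03 and 6.23 CPM under XAV939. The drug groups overlapped and the siRNA groups, as the naming rule required, did not (knockdown effect 2.75, SE 0.19, adjusted p = 2.87e-06, difference −2.87, adjusted p = 3.11e-05). *Dpep1*, a dipeptidase, rose from 0.158, 0.0746 and 0.062 CPM to 3.18, 3.84 and 2.31 CPM with knockdown (difference −4.41, SE 0.54, adjusted p = 0.000226). *Syt9*, a calcium sensor of vesicle fusion, rose from 0.947, 0.821 and 1.05 CPM to 5.1, 6.23 and 4.48 CPM (difference −2.33, adjusted p = 0.00026). *Phtf2* (−1.71, adjusted p = 0.000176) and the serine protease *Htra3* (−1.69, adjusted p = 0.00026) were the other two, and *Htra3* fell with XAV939 as well when the block was used (−0.31, adjusted p = 0.0344). Lower with knockdown only were *Psrc1*, a spindle protein, *Skp2*, the ubiquitin ligase subunit that removes the inhibitor p27, *Ciao2a* of iron-sulfur assembly, *Ccdc65* of the ciliary axoneme and *Sgms1*, a sphingomyelin synthase. *Skp2* measured 11.3, 12.7 and 12.2 CPM with siCtrl and 4.92, 3.69 and 5.37 CPM with siTnks/2, and 10.6 to 15 CPM in the drug table (difference 1.48, SE 0.21, adjusted p = 0.000654). The gene overlaps *Lmbrd2*. *Psrc1* went from 32.8, 36.6 and 34.3 CPM to 16.9, 11.8 and 16.2 CPM with knockdown (difference 1.55, adjusted p = 0.000333), and the differences of the other three lay between 1.08 and 1.74.

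**Figure D5:**
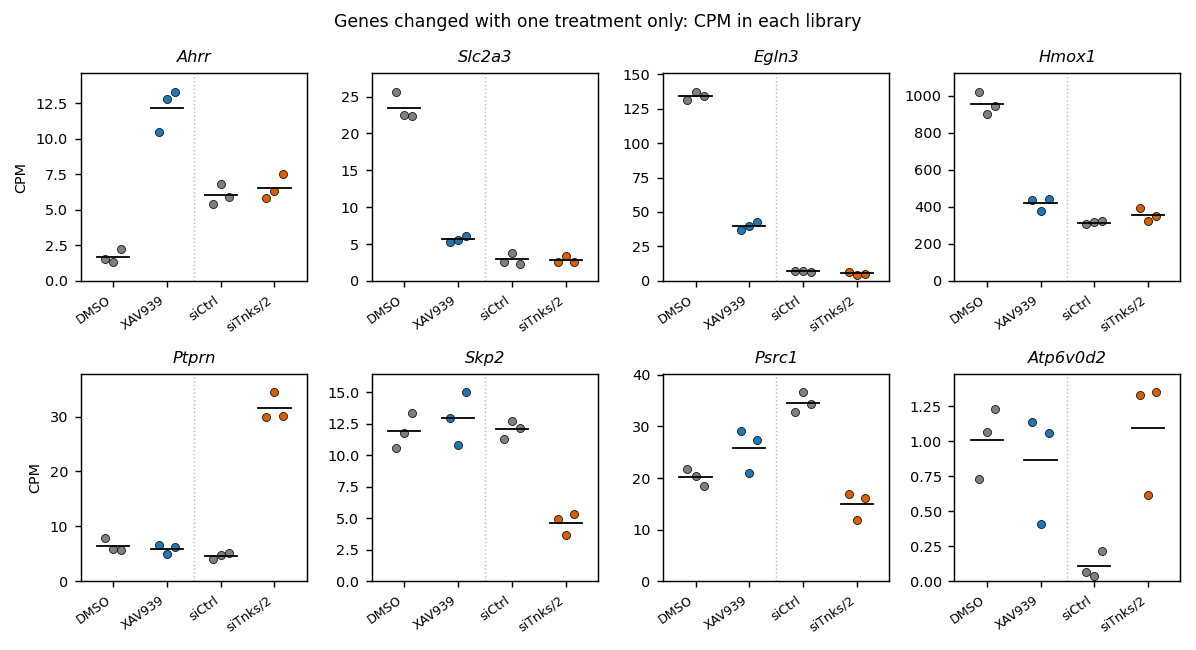
CPM of 8 genes changed by 1 treatment only, with 1 point per library and a bar at each group mean. *Ahrr*, *Slc2a3*, *Egln3* and *Hmox1* are apart between DMSO and XAV939, and *Ptprn*, *Skp2*, *Psrc1* and *Atp6v0d2* between siCtrl and siTnks/2.

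Among genes changed in opposite directions, those with the smallest p-values included *Ntrk2*, the receptor of brain-derived neurotrophic factor. It fell with XAV939 from 10.7, 9.59 and 11.5 CPM to 7.7, 8.87 and 7.6 CPM and rose with knockdown from 11.1, 11.0 and 13.4 CPM to 45.4, 47.6 and 37.8 CPM (difference −2.27, SE 0.18, adjusted p = 2.2e-05). The controls of the tables were alike for this gene. *Itga7*, a laminin-binding integrin, went from 24.4, 22.2 and 20 CPM to 4.94, 6.67 and 5.32 CPM under XAV939 and from 8.37, 10.0 and 8.67 CPM to 13.2, 18.6 and 12.1 CPM with knockdown (difference −2.66, adjusted p = 2.8e-05). *Kbtbd11* (chromosome 8, 15011025 to 15033333) went from 68.0, 53.3 and 69.9 CPM to 10.7, 15.7 and 15.8 CPM under XAV939 and from 2.65, 3.1 and 2.45 CPM to 4.99, 4.92 and 4.25 CPM with knockdown (difference −2.96, adjusted p = 2.8e-05). Higher with XAV939 and lower with knockdown, next to *Id1* and *Id3*, were the sugar transporter *Slc2a6* (difference 1.99, SE 0.24, adjusted p = 0.000208), the nucleoporin *Nup85* (0.98, adjusted p = 0.000226) and the membrane scaffold *Flot1* (1.30, adjusted p = 0.000227). *Nup85* measured 29.0, 31.4 and 26.7 CPM under DMSO, 44.9, 43.8 and 42.0 CPM under XAV939, 43.2, 42.0 and 40.6 CPM with siCtrl and 32.8, 28.8 and 34.1 CPM with siTnks/2. Each treatment brought the gene near the control level of the other table.

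Other lists held fewer called differences or shared most of their change. Over all genes the difference was called for 13.5%. Of 30 cartilage matrix genes, 13 rose with XAV939 and 19 with knockdown, 11 with both, and 2 differed (7 with the block). The medians were 0.67 and 0.92, and the summed level was 32900 to 43200 CPM under DMSO, 44800 to 65300 CPM under XAV939, 102000 to 134000 CPM with siCtrl and 147000 to 237000 CPM with siTnks/2. *Cilp2*, a matrix protein of the territorial cartilage, was one of the 2 and rose with knockdown only (0.89, SE 0.20, adjusted p = 0.0084). *Omd* (osteomodulin), a keratan sulfate proteoglycan, was the other and fell with both, from 7.58, 7.88 and 6.8 CPM to 2.79, 2.79 and 2.89 CPM under XAV939 and from 29.4, 27.5 and 29.4 CPM to 21.1, 14.8 and 25.1 CPM with knockdown (difference −0.88, adjusted p = 0.0156). Of 27 contractile cytoskeleton genes, 7 fell with XAV939 and 16 with knockdown, 5 with both, and 1 differed (4 with the block, 2 without siTnks/2 replicate 2, 0 when any of 9 others was left out singly). Of 20 YAP and TAZ targets, 11 fell with XAV939 and 7 with knockdown, all 7 of these with both, and 2 differed (7 with the block, 5 without XAV939 replicate 3, 1 without siTnks/2 replicate 1). Of 31 interferon-stimulated genes 3 differed, all higher with XAV939, with medians of 0.22 and −0.33 (9 with the block, 0 without siCtrl replicate 3, and 1 when any of 9 others was left out singly). Of 40 respiratory chain genes 2 differed, but 19 with the block, all higher with XAV939. The count was 12 without XAV939 replicate 3, 9 without DMSO replicate 2 and 1 when any of 8 others was left out singly. *Sox9*, the master regulator of chondrocytes, measured 101, 121 and 119 CPM under DMSO, 127, 160 and 139 CPM under XAV939, 177, 206 and 180 CPM with siCtrl and 183, 225 and 182 CPM with siTnks/2. Neither its effects nor its difference of 0.26 (SE 0.16, adjusted p = 0.316) were called, and with the block its XAV939 rise of 0.32 was (adjusted p = 0.00509).

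Among lists of sterol, lysosomal and growth factor genes, 4 of 30 cholesterol genes (13 with the block), 7 of 28 lysosomal genes (12) and 5 of 23 genes of the IGF axis (13) differed, against 13.5% of all genes, which the share of cholesterol genes did not exceed. With single libraries left out these counts ranged from 2 (DMSO replicate 1) to 8 (XAV939 replicate 3), from 3 (DMSO replicate 1) to 8 (DMSO replicate 3) and from 3 (siCtrl replicate 1) to 6 (DMSO replicate 1). *Mvd* and *Mvk*, enzymes of the mevalonate pathway, fell with knockdown (−0.61 and −0.56, adjusted p = 0.0138 and 0.0203) with XAV939 effects of 0.44 and 0.40 that were called with the block (adjusted p = 0.00211 and 0.00725). *Hexa*, a lysosomal hexosaminidase, rose with knockdown only, from 238, 237 and 253 CPM to 375, 451 and 361 CPM (difference −0.62, adjusted p = 0.00955). *Atp6v0d2*, a proton pump subunit of osteoclasts, rose with knockdown from 0.0631, 0.0373 and 0.217 CPM to 1.33, 0.615 and 1.35 CPM (difference −2.93, adjusted p = 0.00574). *Ctsc*, a cathepsin, fell with XAV939 only (difference −1.43, adjusted p = 0.00352). *Igfbp3*, the main carrier of IGFs in serum, went from 160, 155 and 142 CPM to 68.8, 48.5 and 71.0 CPM under XAV939 and stayed at 16.2 to 26.2 CPM in the siRNA table (difference −1.34, SE 0.24, adjusted p = 0.00291). Of 25 p53 and senescence genes 5 differed, against the same 13.5% of all genes, with 3 called when any of 10 libraries was left out singly and 8 without DMSO replicate 2. *Cdkn1a* (p21) fell with XAV939 (−0.77, SE 0.16, adjusted p = 0.00371), with a knockdown effect of 0.43 (adjusted p = 0.0798, and 0.0118 with the block) and a difference of −1.20 (adjusted p = 0.00387). *Gdf15*, a stress-induced cytokine, fell with XAV939 from 39.8, 38.7 and 39.9 CPM to 25.3, 28.2 and 28.4 CPM and rose with knockdown from 20.6, 17.1 and 19.8 CPM to 28.0, 26.9 and 22.7 CPM (difference −0.96, SE 0.14, adjusted p = 0.000652).

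The cultures carried their labelled identity in all groups. All 8 defining chondrocyte markers were detected, with summed levels of 25600 to 34400 CPM under DMSO, 35300 to 53700 CPM under XAV939, 80000 to 109000 CPM with siCtrl and 115000 to 193000 CPM with siTnks/2, and 0 of them differed between the treatments. Of 14 leukocyte markers 7 passed the filter on low counts, with sums of 37.4 to 47.0, 34.8 to 41.4, 22.7 to 24.6 and 42.2 to 64.4 CPM in the same order of groups, so the sum was higher in every knockdown library than in every siCtrl library, and its part in the acute-phase and *Atp6v0d2* results was not tested. Osteoblast markers summed to 5510 to 6380 CPM under DMSO, 2390 to 3080 CPM under XAV939, 1910 to 3760 CPM with siCtrl and 914 to 3130 CPM with siTnks/2. The sum was lower in the XAV939 than in the DMSO libraries, but single markers did not all follow it. *Sp7*, 1 of the 7 markers, rose with XAV939 from 1.68, 2.11 and 1.9 CPM to 6.72, 4.88 and 6.02 CPM. Among the 7 the difference was called higher for 1 and lower for 1. The part of this sum in the results on mineralization genes was not tested. Adipocyte markers were at 50.8 to 68.5, 65.4 to 83.7, 50.4 to 67.2 and 86.8 to 108 CPM in the same order. Osteoclast markers summed to 60.3 to 106 CPM, endothelial markers to at most 10.1 CPM and muscle markers to at most 9.96 CPM over the 12 libraries. Of 6 erythroid markers 0 passed the filter, with sums of at most 0.124 CPM, and 3 were at 0 in all 12 libraries.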

How the data were processed

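RNA from primary chondrocytes was sequenced as stranded poly(A) libraries on an Illumina HiSeq instrument, with 3 biological replicates per group according to the study. Per the submitters' processing notes, reads were trimmed with Trimmomatic 0.32, aligned to mm10 with TopHat2 2.0.13 and counted per gene with HTSeq 0.6.1p1. The deposited values are raw counts per gene, in 1 table for the drug libraries and 1 for the siRNA libraries. The tables were joined on 24134 shared Entrez gene IDs, of which 24051 had a symbol.

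All 15 libraries entered 1 model in edgeR 4.0.16 (R 4.3.3) with filterByExpr, TMM factors and a prior count of 2, and the quasi-likelihood F test was applied to each effect and to their difference. Adjusted p-values are Benjamini-Hochberg over the 14271 genes that passed the filter. A gene counted as changed by 1 treatment only where that effect and the difference were called and the other effect was not. Alternatives were other scaling factors and filters, DESeq2 1.42.0, voom of limma 3.58.1, the 12 libraries alone, each table alone, a stricter threshold, a replicate block and each library left out in turn.

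Libraries of the same replicate number were mostly more alike than others, except for DMSO replicate 2. It correlated at 0.136 with XAV939 replicate 2 and 0.297 with XAV939 replicate 1, and at 0.216 with IWR-1 replicate 2 and 0.3 with IWR-1 replicate 1. Deviations from the group means of same-numbered libraries correlated at 0.136 to 0.523 over 9 drug pairs and at 0.362 to 0.472 over 3 siRNA pairs, and those of other-numbered libraries at no more than 0.3 and 0.075. The main fit and the exact permutation test did not use the replicate number. Values with this number as a block are given where they change a call.

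Genes were named by rule: the 2 targets, the 5 genes with the smallest adjusted p of the difference in each class and direction whose groups did not overlap, and up to 5 members of each list in the same order. For genes taken from the classes the lack of overlap was thus a condition and not a result. Some genes that the list rule selects were left out of the text. A few named genes are not reported here. The lists and the comparison itself were chosen with earlier results of these data known. Of the named genes, 12 overlap another tested coding gene. Promoters came from RefSeq (GRCm38.p6) and siRNA sites from GENCODE annotation of GRCm38.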

Additional observations from a re-analysis of the deposited data

Results flagged for a closer look

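Of the 191 genes that moved in opposite directions under XAV939 and knockdown, 10 are listed here. They are the 5 in each direction with the smallest adjusted p of the difference among genes whose groups did not overlap in either table. Higher with XAV939 were *Id1* (difference 1.80 on the log2 scale), *Slc2a6* (1.99), *Nup85* (0.98), *Flot1* (1.30) and *Id3* (1.34). Lower with XAV939 were *Ntrk2* (−2.27), *Ero1a* (−1.65), *Gdf5* (−3.18), *Itga7* (−2.66) and *Kbtbd11* (−2.96). Drug and siRNA libraries come from separate tables, so treatment and table cannot be told apart in these differences beyond each table's own control.

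The IWR-1 libraries entered the model above only through the filter, the scaling and the estimate of the spread. They gave *Ahrr* at a mean of 3.46 CPM (2.9 to 4.55 CPM in the 3 libraries), above the DMSO mean of 1.7 CPM and below the XAV939 mean of 12.2 CPM. The IWR-1 and XAV939 libraries share the DMSO controls.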

How the results depend on the processing

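With the replicate number as a block, calls numbered 5161 for XAV939, 4168 for knockdown, 4018 for the difference, 1718 for XAV939 only, 1172 for knockdown only and 607 for opposite genes. At an adjusted p-value under 0.01 they were 1453, 956, 656, 349, 173 and 44. Without the requirement that the difference be called, 2268 genes were called with XAV939 only and 1560 with knockdown only. With single libraries left out, the XAV939 calls ranged from 1905 to 3423, the knockdown calls from 1340 to 2727, the difference calls from 1241 to 2159, XAV939-only genes from 560 to 1109, knockdown-only genes from 301 to 667 and opposite genes from 105 to 212. These 6 counts stayed within 1.5 times under RLE and upper-quartile factors, both other filters, DESeq2, voom and the 12 libraries alone, as did the 2 effects with each table alone. With the 12 libraries alone all 6 were lower than in the main fit. They were 2423 for XAV939, 1822 for knockdown, 1353 for the difference, 634 for XAV939 only, 393 for knockdown only and 130 for opposite genes. The cause of the changes was not tested.

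Of 126 named genes, 124 had a called difference, and 111 of these 124 kept that call whichever single library was left out. The block added the call of *Tnks* and changed no other call of a difference, although it moved the class of 30 named genes, with the values beside those described above. The call was lost for 5 genes with the 12 libraries alone, 4 with voom, 2 without a filter, 1 with DESeq2 (*Il33*) and 1 with upper-quartile factors (*Axin2*). No named gene reversed. Depth limits the genes under 1 CPM, such as *Il33*, *Gulo* and *Nos2* in the siRNA table, where a few reads set the level.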

Other observations

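Several genes of the comparison were also measured with IWR-1, which shares its DMSO libraries with XAV939, so the values are set side by side only. *Hmox1* had means of 953 CPM with DMSO, 419 CPM with XAV939 and 484 CPM with IWR-1. *Cacna1h*, the T-type calcium channel gene, was at 35.3, 2.64 and 2.9 CPM, and *Bmp3* at 2.9, 0.117 and 0.118 CPM in the same order. *Egln3* was at 134, 39.5 and 22.1 CPM and *Slc2a3* at 23.5, 5.64 and 3.93 CPM. *Id1* was at 28.3, 67.8 and 57.7 CPM and *Gdf5* at 69.5, 20.5 and 20.2 CPM. The 3 IWR-1 libraries lay between 18.6 and 22.0 CPM for *Gdf5* and between 52.5 and 67.1 CPM for *Id1*.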
